A study of Homo sapiens with 28 samples.

Results

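RASSF1, CDKN2A, MGMT, DAPK1, RARB, TSPYL5, PTGS2, FHIT, CDH13 and GATA4 are 10 genes whose promoters have been reported methylated in lung cancer, and their transcripts were followed here under 2 inhibitors of DNA methylation. They were found by the gene symbol annotated to each probe set of the array. Of 22277 probe sets, 16 carried the symbol of a member, and these stood for 9 of the 10 genes. CDH13, which encodes an anchored cadherin, had no annotated probe set and was not analysed here. To be tested, a probe set had to lie above the median of its array on 2 or more of the 28 arrays. The test covered 8024 genes, 7 of them members. FHIT and GATA4 did not pass.

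The study exposed A549 and H1299, both established human non-small cell lung cancer lines, to azacitidine or decitabine at 0.3, 1 or 3 µM for 48 h, with fresh drug every 24 h. Cells given only the solvent dimethyl sulfoxide served as vehicle controls in each line. The 14 groups were thus A549 with azacitidine, A549 with decitabine, H1299 with azacitidine and H1299 with decitabine, each at 3 doses, and the vehicle of each line, with 2 arrays per group. The labels do not say whether the 2 arrays came from separate cultures, so each p measures only the spread between these samples. Each line is 1 cultured model and neither was compared with normal lung cells.

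Cytosine methylation at CG dinucleotides of a promoter is copied onto the daughter strand by DNA methyltransferases and is associated with a silent gene. Azacitidine, a ribonucleoside, and decitabine, its deoxyribonucleoside counterpart, are cytidine analogues that trap these enzymes once built into DNA. Azacitidine is also built into RNA. Neither methylation nor protein was analysed here.

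Upstream sequence from RefSeq (GRCh38.p14) was matched for 7 of the 10 genes, at 13 annotated transcription starts. Over the 250 bases before the start, RASSF1 held 25 CG dinucleotides, MGMT 36, and PTGS2 9, against a median of 11 over 35116 promoters. At least as many CGs as in RASSF1 were found in 21.6% of those promoters, as in MGMT in 4.85%, and as in PTGS2 in 54.1%. CDKN2A held 24 and 20 at its 2 starts, DAPK1 32 and 26, RARB between 1 and 28 over its 4 starts, and FHIT 11 and 0. The letters CG were counted, and 93.9% of all promoters held at least 1. The following 3 sequences are shown because RASSF1 rose with azacitidine in both lines, PTGS2 moved in opposite directions in the 2 lines, and MGMT passed in no drug comparison. They are written in the direction of transcription with every CG in capitals. RASSF1 lies at chr3:50337451-50337700 on the minus strand, MGMT at chr10:129466991-129467240 on the plus strand, and PTGS2 at chr1:186680424-186680673 on the minus strand. The RASSF1 start lies 3386 bases inside the annotated gene, so this is not the sequence before the gene's outermost start. No outer start of RASSF1 was matched, so the 25 CGs and the 21.6% describe this inner start only. They need not describe the promoter reported methylated.
RASSF1: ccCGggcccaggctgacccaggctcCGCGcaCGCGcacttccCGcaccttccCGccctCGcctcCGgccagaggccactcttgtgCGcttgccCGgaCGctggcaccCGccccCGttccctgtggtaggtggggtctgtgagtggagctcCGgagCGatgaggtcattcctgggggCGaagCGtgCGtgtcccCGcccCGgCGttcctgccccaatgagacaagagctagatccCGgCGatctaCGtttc
MGMT: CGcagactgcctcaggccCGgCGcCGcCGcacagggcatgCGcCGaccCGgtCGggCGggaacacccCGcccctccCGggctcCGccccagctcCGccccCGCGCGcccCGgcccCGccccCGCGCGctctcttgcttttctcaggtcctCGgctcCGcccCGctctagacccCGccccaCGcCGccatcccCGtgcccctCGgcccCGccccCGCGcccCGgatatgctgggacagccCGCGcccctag
PTGS2: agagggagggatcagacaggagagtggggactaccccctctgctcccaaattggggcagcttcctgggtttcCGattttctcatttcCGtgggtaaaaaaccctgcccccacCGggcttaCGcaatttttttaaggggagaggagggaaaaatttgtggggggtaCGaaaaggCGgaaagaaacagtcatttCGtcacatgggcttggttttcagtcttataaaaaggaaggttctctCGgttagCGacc
A count of CGs describes the reference sequence and says nothing about methylation in these cells.

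Values are MAS5 signals, an intensity per probe set that the authors scaled. The arrays had medians between 92.7 and 123 and trimmed means between 500.125 and 500.159. Differences are on the log2(signal + 32) scale, which draws dim genes toward 0. Each comparison was tested with limma over all 8024 genes, two-sided, with a Benjamini-Hochberg adjusted p under 0.05 as the threshold. KRT18, an epithelial keratin, had signals of 8261 to 15648 on A549 arrays and 3369 to 7824 on H1299 arrays. CDH1, epithelial cadherin, lay between 43.1 and 908 in A549 and between 1.67 and 14.5 in H1299. None of the 7 measured leukocyte and endothelial markers passed the filter, and their summed signal was 87.7 to 206 in A549 and 114 to 243 in H1299.

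DAPK1, RARB, PTGS2, MGMT and TSPYL5 were higher, and CDKN2A lower, in A549 vehicle than in H1299 vehicle. DAPK1, RARB, PTGS2 and MGMT lay above the array median only on A549 arrays, and CDKN2A only on H1299 arrays, so the filter admitted each through the line where it was high and these differences had to appear. The count of 6 of 7 called, where 65.3% of all genes tested were called, is therefore a description only. DAPK1, a calmodulin-regulated kinase of cell death, had 1410 and 1416 in A549 vehicle, against 78.6 and 72.5 in H1299 vehicle. Its log2 difference was 3.75 ± 0.12 (SE, adjusted p = 1.14e-16). RARB, the beta retinoic acid receptor, had 516 and 488 in A549, against 52.4 and 38.6 in H1299 (2.79, adjusted p = 2.43e-10). PTGS2, the inducible cyclooxygenase of prostaglandin synthesis, had 373 and 274 in A549, against 27.1 and 18.2 in H1299 (2.69, adjusted p = 6.89e-11). For all 3 genes the A549 arrays lay above, and the H1299 arrays below, the median of their array.

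TSPYL5, of the nucleosome assembly protein family, was above the median in both lines, with 654 and 678 in A549 and 402 and 408 in H1299 (0.68, adjusted p = 1.57e-07). MGMT, which removes alkyl groups from guanine in DNA, had 139 and 151 in A549, against 49.3 and 66.6 in H1299 (0.98, adjusted p = 0.00516, and 0.0525 with a pseudocount of 1). CDKN2A, which encodes the p16 inhibitor of cyclin-dependent kinases, was the member lower in A549, with 102 and 98.0 against 1549 and 1629 in H1299 (-3.62, adjusted p = 9.1e-14). The signal was not assigned to any single annotated start of the gene. A549 is known to carry a homozygous deletion of CDKN2A, and its signal was above the median on none of the 14 A549 arrays and on all 14 H1299 arrays. RASSF1, a Ras-association scaffold protein that binds microtubules and Hippo pathway kinases, had 73.1 and 138 in A549 and 129 and 156 in H1299. The RASSF1 ranges overlapped, and the difference of -0.38 did not pass (adjusted p = 0.21), though it was -0.73 (adjusted p = 0.0418) without A549 vehicle replicate 2.

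**Figure D1:**
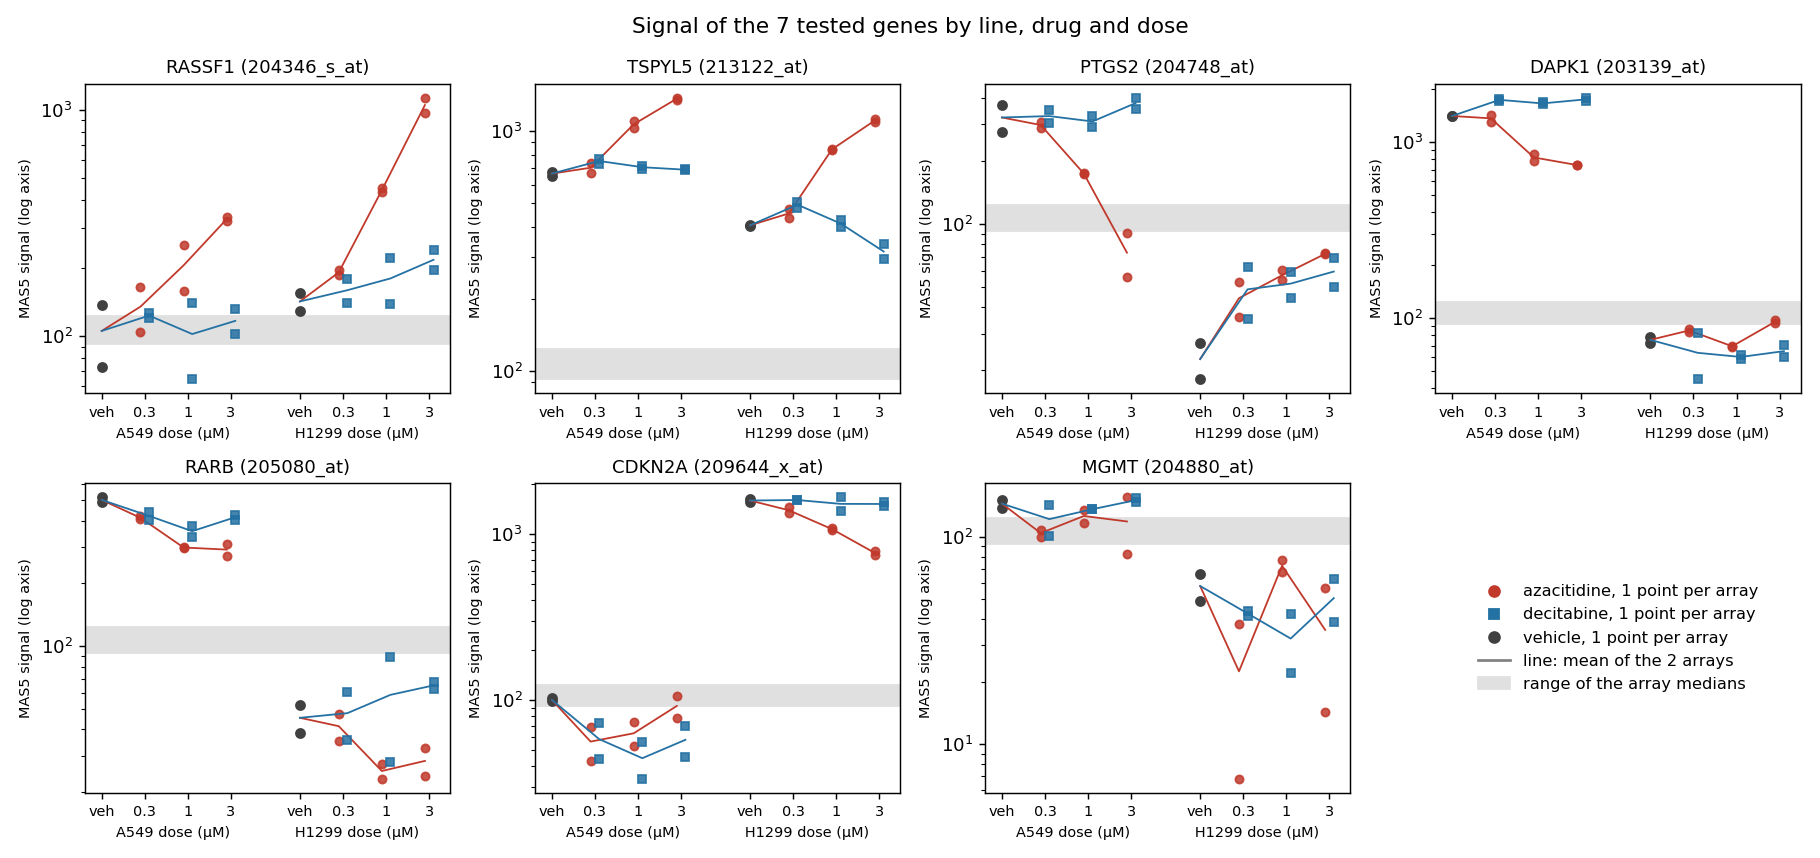
MAS5 signal (log axis) of the 7 tested genes by dose in A549 and H1299, with 1 point per array, lines through the means of the 2 arrays and a grey band for the range of array medians. RASSF1 and TSPYL5 rise with azacitidine dose in both lines, while PTGS2 falls in A549 and lies higher than vehicle in H1299.

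Azacitidine raised 2 of the genes in both lines, RASSF1 and TSPYL5. In H1299, RASSF1 had 129 and 156 with vehicle, 185 and 197 at 0.3 µM, 450 and 432 at 1 µM, and 1129 and 965 at 3 µM. The values were ordered by dose without overlap, and in bulk RNA more expressing cells and more RNA per cell cannot be told apart. Its log2 difference from vehicle was 0.36 at 0.3 µM (adjusted p = 0.462), 1.44 at 1 µM (adjusted p = 0.000195) and 2.63 ± 0.26 at 3 µM (SE, adjusted p = 3.06e-08). In A549, RASSF1 had 73.1 and 138 with vehicle, 166 and 104 at 0.3 µM, 158 and 252 at 1 µM, and 321 and 336 at 3 µM. Vehicle and 0.3 µM overlapped in A549, and both 3 µM arrays were above all lower doses. The A549 differences were 0.30 at 0.3 µM (adjusted p = 0.625), 0.80 at 1 µM (adjusted p = 0.0285) and 1.43 at 3 µM (adjusted p = 0.000175). The 1 µM call in A549 rested on single arrays: the adjusted p was 0.335 without vehicle replicate 1 and 0.292 without azacitidine 1 µM replicate 2. The probe set is of the kind that can match several transcripts, so the long and short isoforms of RASSF1, which use different promoters, were not separated.

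TSPYL5 had smaller and more even changes. In A549 it had 654 and 678 with vehicle, 673 and 737 at 0.3 µM, 1105 and 1036 at 1 µM, and 1356 and 1382 at 3 µM. In H1299 it had 402 and 408 with vehicle, 476 and 433 at 0.3 µM, 843 and 839 at 1 µM, and 1126 and 1098 at 3 µM. At 1 and 3 µM neither line overlapped its vehicle. The differences at 3 µM were 1.00 ± 0.08 in A549 (SE, adjusted p = 4.77e-09) and 1.39 ± 0.08 in H1299 (adjusted p = 6.03e-12), and those at 1 µM were 0.66 (adjusted p = 3.2e-06) and 1.00 (adjusted p = 4.23e-09). At 0.3 µM the difference was 0.08 in A549 (adjusted p = 0.684) and 0.15 in H1299 (adjusted p = 0.287).

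Azacitidine lowered DAPK1, PTGS2 and RARB in A549, the 3 genes that were far higher there than in H1299. PTGS2 in A549 had 373 and 274 with vehicle, 308 and 287 at 0.3 µM, 173 and 176 at 1 µM, and 90.5 and 55.6 at 3 µM. At 3 µM both arrays had dropped below the median of their array, and the log2 difference from vehicle was -1.76 ± 0.19 (SE, adjusted p = 4.09e-07). The difference at 1 µM was -0.77 (adjusted p = 0.0056), and -0.57 (adjusted p = 0.102) without A549 vehicle replicate 1. DAPK1 in A549 had 1410 and 1416 with vehicle, 1429 and 1311 at 0.3 µM, 780 and 863 at 1 µM, and 741 and 747 at 3 µM. Both higher doses lay clear of vehicle and of 0.3 µM, with differences of -0.76 at 1 µM (adjusted p = 0.000116) and -0.90 at 3 µM (adjusted p = 7.75e-06). RARB in A549 had 516 and 488 with vehicle, 406 and 419 at 0.3 µM, 295 and 299 at 1 µM, and 311 and 270 at 3 µM. The treated RARB values did not overlap vehicle at any dose, which also held with decitabine. The azacitidine difference passed at 1 µM (-0.70, adjusted p = 0.0217) and 3 µM (-0.73, adjusted p = 0.0107). Both RARB calls rested on single arrays, since the 3 µM adjusted p was 0.0559 without A549 vehicle replicate 1 and 0.0802 without azacitidine 3 µM replicate 2, and the 1 µM adjusted p was 0.0577 to 0.109 without any 1 of its 4 arrays.

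In H1299 the same 3 genes started below the array median and none exceeded it on any of the 14 arrays. PTGS2 had 27.1 and 18.2 with vehicle, 52.6 and 35.8 at 0.3 µM, 60.1 and 53.8 at 1 µM, and 71.6 and 72.6 at 3 µM azacitidine. These dim values rose past the threshold at 1 µM (0.71, adjusted p = 0.0068) and 3 µM (0.93, adjusted p = 0.000329). The 1 µM call for PTGS2 was lost without H1299 vehicle replicate 2 (adjusted p = 0.0725). DAPK1 in H1299 had 78.6 and 72.5 with vehicle and 93.8 and 97.9 at 3 µM, a difference of 0.25 that did not pass (adjusted p = 0.0969). RARB in H1299 had 52.4 and 38.6 with vehicle and 23.9 and 32.6 at 3 µM, and its difference of -0.36 did not pass either (adjusted p = 0.171). The other RARB probe sets were dim and did not pass the filter. The brightest of them in A549 had means of 74.2 with vehicle and 67.4, 56.4 and 51.45 with azacitidine from low to high dose. With decitabine its A549 means were 93.1, 89.2 and 74.6, not lower than vehicle.

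CDKN2A was lower with azacitidine in H1299, where it was abundant. It had 1549 and 1629 with vehicle, 1329 and 1447 at 0.3 µM, 1052 and 1086 at 1 µM, and 789 and 745 at 3 µM. Every dose lay below vehicle, and the difference passed at 1 µM (-0.56, adjusted p = 0.0175) and 3 µM (-1.02, adjusted p = 4.75e-05). The 1 µM call ended without any 1 of its 4 arrays (adjusted p = 0.0543 to 0.0898). A second CDKN2A probe set, fitted with no filter on signal, also fell in H1299, by 0.77 at 1 µM (adjusted p = 0.00204) and by 1.10 at 3 µM (adjusted p = 2.34e-05). In A549, where the values were at or below the array median, the main probe set had 102 and 98.0 with vehicle, 69.1 and 43.2 at 0.3 µM, 73.5 and 52.6 at 1 µM, and 106 and 78.1 at 3 µM. Only the 1 µM difference passed in A549 (-0.48, adjusted p = 0.0486), and 11 of the alternatives, among them leaving out either vehicle array (adjusted p = 0.171 and 0.104), ended that call. The second probe set gave no call against vehicle in A549 (adjusted p = 0.431 to 0.952).

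With all arrays in the fit, MGMT passed in no comparison of drug with vehicle or drug with drug. Its A549 signals ran from 82.5 through a median of 136 to 155, and its H1299 signals from 6.81 through 43.2 to 77.3, with all 14 H1299 arrays below the array median. With azacitidine at 3 µM, MGMT had 82.5 and 155 in A549, against 139 and 151 with vehicle, and the 2 treated arrays spanned the vehicle pair (-0.27, 95% interval -0.87 to 0.33, adjusted p = 0.494). In H1299 it had 14.3 and 56.9 at 3 µM, against 49.3 and 66.6 with vehicle (-0.48, 95% interval -1.08 to 0.12, adjusted p = 0.17). That H1299 value rested on its 2 unlike arrays, since without azacitidine 3 µM replicate 2 it was -0.95 and passed (adjusted p = 0.0169), as did the H1299 difference from decitabine at 3 µM (-0.82, adjusted p = 0.0356).

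Counted over the 7 genes, azacitidine in A549 gave 0 calls at 0.3 µM, 6 at 1 µM (2 higher, 4 lower) and 5 at 3 µM (2 higher, 3 lower). The 4 lower at 1 µM included CDKN2A, known to be deleted in A549. Of all genes tested, 2.44% were called at 0.3 µM, 25.2% at 1 µM and 38.3% at 3 µM. In H1299 azacitidine gave 0 calls at 0.3 µM and 4 (3 higher, 1 lower) at both 1 and 3 µM, where 5.67%, 35.3% and 53.9% of all genes were called at the 3 doses in that order. The H1299 share at 3 µM was thus close to the background, with 4 of 7 members. At 0.3 µM limma gave 1 member in A549 (CDKN2A) and 2 in H1299 with an unadjusted p under 0.05. The share of all genes under that unadjusted threshold was not taken, so these numbers have no background. The median difference at 3 µM was -0.27 over the members and 0.06 over all genes in A549, and 0.25 and 0.08 in H1299. All comparisons with vehicle within a line share the same 2 vehicle arrays.

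**Figure D2:**
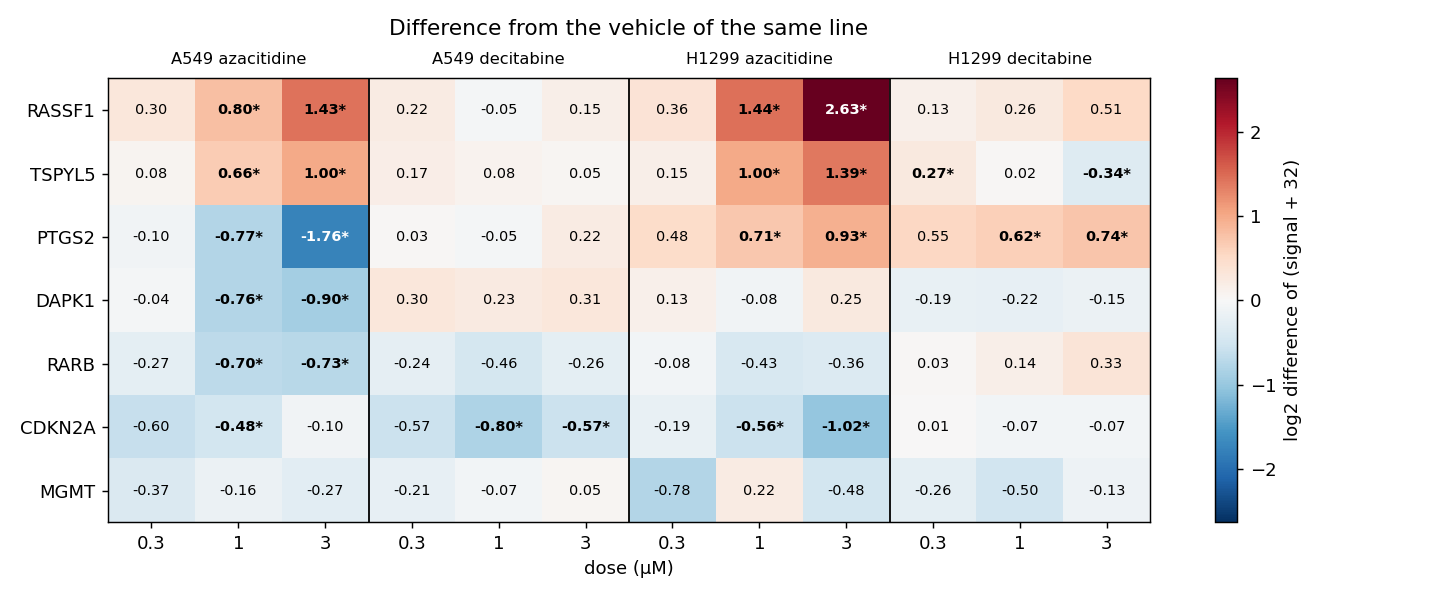
Log2 difference of (signal + 32) from the vehicle of the same line for the 7 genes (rows) at each dose (columns), with an asterisk where the adjusted p was under 0.05. The azacitidine columns hold 19 calls and the decitabine columns 6. Of all genes tested, 2.44% to 53.9% were called per azacitidine column and 7.69% to 30.9% per decitabine column. The columns of a line share its vehicle arrays. Calls with each drug include CDKN2A in A549, where it is known to be deleted.

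Few of these genes passed the threshold with decitabine. In A549, RASSF1 had 126 and 121 at 0.3 µM, 64.8 and 140 at 1 µM and 132 and 102 at 3 µM, all inside the vehicle range of 73.1 to 138 except 1 array below and 1 above it. In H1299, RASSF1 had 140 and 179, 221 and 138, and 240 and 195 at the 3 doses from low to high, against 129 and 156 with vehicle. At 3 µM both H1299 arrays were above the vehicle pair, but the RASSF1 difference of 0.51 did not pass (95% interval -0.03 to 1.06, adjusted p = 0.145, and 0.0417 with H1299 fitted alone). DAPK1 in A549 had 1725 and 1764, 1646 and 1686, and 1795 and 1717 at 0.3, 1 and 3 µM. All 6 DAPK1 values exceeded both vehicle values (1410 and 1416), with differences of 0.30, 0.23 and 0.31 that did not pass (adjusted p = 0.154, 0.216 and 0.0745). A second, dim DAPK1 probe set did not pass the filter. Its A549 means were lower with decitabine (28.9, 34.6 and 30.1 from low to high dose) than with vehicle (49.2). With A549 fitted alone all 3 DAPK1 differences passed (adjusted p = 0.0278, 0.0488 and 0.00852). RARB in A549 had 401 to 441, 335 to 377 and 404 to 427 with decitabine at 0.3, 1 and 3 µM. All lay below its vehicle values of 488 and 516, but no difference passed (adjusted p = 0.558, 0.153 and 0.412). The 1 µM difference of -0.46 passed with A549 fitted alone (adjusted p = 0.0118).

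Between 3 and 0.3 µM decitabine the only member called was TSPYL5, in H1299. It had 402 and 408 with vehicle, 509 and 480 at 0.3 µM, 425 and 400 at 1 µM, and 338 and 293 at 3 µM. It was higher than vehicle at 0.3 µM (0.27, adjusted p = 0.022) and lower at 3 µM (-0.34, adjusted p = 0.00266), and 3 µM was below 0.3 µM by a log2 difference of -0.60 (adjusted p = 3.84e-05). Leaving out H1299 decitabine 3 µM replicate 2 moved the 3 µM adjusted p for TSPYL5 to 0.065, and leaving out either vehicle array or decitabine 0.3 µM replicate 1 moved the 0.3 µM one to 0.0753 to 0.155. In A549, TSPYL5 had 690 and 694 at 3 µM decitabine, against 654 and 678 with vehicle (0.05, adjusted p = 0.669).

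PTGS2 in H1299 had 35.3 and 62.3 at 0.3 µM, 44.6 and 59.3 at 1 µM and 50.0 and 68.7 at 3 µM decitabine, all above its vehicle values of 27.1 and 18.2. It passed at 1 µM (0.62, adjusted p = 0.0241) and 3 µM (0.74, adjusted p = 0.00594). The PTGS2 calls depended on H1299 vehicle replicate 2, without which the adjusted p was 0.161 at 1 µM and 0.0657 at 3 µM, and on the second decitabine array at each dose (adjusted p = 0.18 and 0.0808 without it). CDKN2A in A549 had 55.6 and 33.6 at 1 µM and 45.4 and 69.9 at 3 µM, against 102 and 98.0 with vehicle. These values, the signal of a gene known to be deleted in A549, lay at or below the array median. They fell at 1 µM (-0.80, adjusted p = 0.00327) and 3 µM (-0.57, adjusted p = 0.0202). The 3 µM call for CDKN2A ended without either vehicle array (adjusted p = 0.0944 and 0.057) or without decitabine replicate 1, which its label calls a repeat (0.247), and the 1 µM call without decitabine replicate 2 (0.0795). The second CDKN2A probe set showed no such difference in A549, with -0.03 at 1 µM (adjusted p = 0.952) and 0.03 at 3 µM (adjusted p = 0.95).

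Decitabine thus gave 0, 1 and 1 calls among the 7 members at 0.3, 1 and 3 µM in A549, where 7.69%, 16.6% and 25.8% of all genes were called. Each of these A549 calls was CDKN2A, a gene known to be deleted in that line. In A549 limma's unadjusted p was under 0.05 for 3 members at 0.3 µM (DAPK1, TSPYL5 and the deleted CDKN2A). The share of all genes under that unadjusted threshold was not taken, so this number has no background. In H1299 decitabine gave 1, 1 and 2 calls, where 17.8%, 23.4% and 30.9% of all genes were called. The members' shares were near or below the background at each of these doses. The median difference at 3 µM was 0.05 over the members and 0.01 over all genes in A549, and -0.07 and -0.01 in H1299.

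The drugs were next compared with each other at matched doses. Averaged over the 3 doses, 5 of the 7 genes differed in A549 (3 higher and 2 lower with azacitidine), where 54.4% of all genes were called. The 3 higher in A549 included CDKN2A, known to be deleted there. In H1299 5 differed (3 higher and 2 lower), where 54.0% were called. RASSF1 at 3 µM had 321 and 336 with azacitidine, against 132 and 102 with decitabine, in A549, and 1129 and 965, against 240 and 195, in H1299. The arrays of the 2 drugs did not overlap in either line, and the RASSF1 difference averaged over doses was 0.74 ± 0.15 in A549 (SE, adjusted p = 0.000302) and 1.18 ± 0.15 in H1299 (adjusted p = 1.14e-06). TSPYL5 at 3 µM had 1356 and 1382 with azacitidine and 690 and 694 with decitabine in A549. In H1299 it had 1126 and 1098 with azacitidine and 338 and 293 with decitabine. Its averaged difference was 0.48 in A549 (adjusted p = 1.88e-08) and 0.86 in H1299 (adjusted p = 1.59e-12).

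DAPK1 differed between the drugs in opposite directions in the 2 lines. In A549 at 3 µM it had 741 and 747 with azacitidine, against 1795 and 1717 with decitabine, and over doses the difference was -0.85 ± 0.07 (SE, adjusted p = 3.25e-09). In H1299, in signals all below the array median, DAPK1 had 93.8 and 97.9 with azacitidine, against 70.3 and 60.0 with decitabine at 3 µM, and over doses it was 0.28 higher with azacitidine (adjusted p = 0.00207). PTGS2 in A549 had 90.5 and 55.6 with azacitidine, against 355 and 402 with decitabine at 3 µM (over doses -0.95, adjusted p = 4.08e-07). In H1299 the PTGS2 values of the drugs overlapped at 0.3 and 1 µM, and the difference over doses was 0.07 (95% interval -0.16 to 0.30, adjusted p = 0.621).

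RARB and CDKN2A were lower with azacitidine than with decitabine in H1299. RARB had 23.9 and 32.6 with azacitidine, against 62.5 and 67.5 with decitabine at 3 µM, again below the array median (over doses -0.46, adjusted p = 0.00392). CDKN2A had 789 and 745 with azacitidine, against 1554 and 1475 with decitabine (over doses -0.55, adjusted p = 0.000113). In A549 the RARB difference over doses was -0.25 (95% interval -0.51 to 0.01, adjusted p = 0.104, and 0.00478 with A549 fitted alone). The CDKN2A difference there was 0.25 (adjusted p = 0.0402), which ended on leaving out any 1 of 6 arrays (adjusted p = 0.127 to 0.158). MGMT differed by -0.19 in A549 (95% interval -0.54 to 0.16, adjusted p = 0.351) and by -0.05 in H1299 (95% interval -0.40 to 0.30, adjusted p = 0.822).

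**Figure D3:**
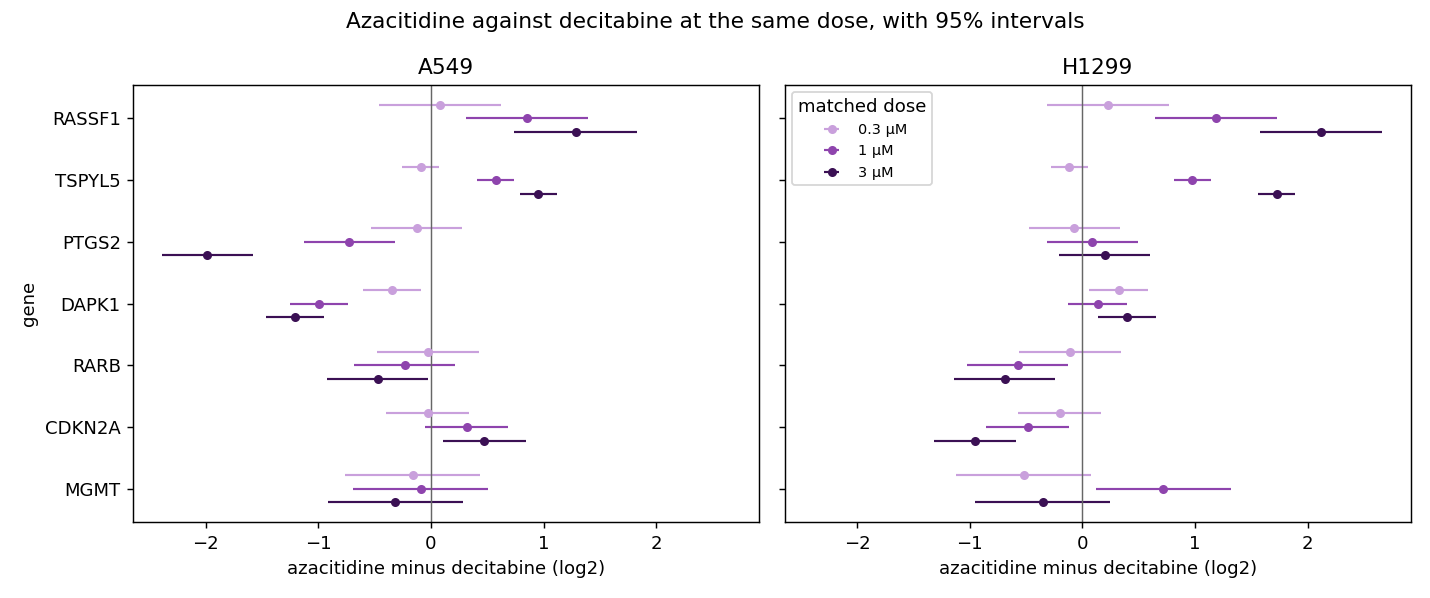
Azacitidine minus decitabine (log2) at 0.3, 1 and 3 µM for the 7 genes in A549 and H1299, with 95% intervals. RASSF1 and TSPYL5 lie right of 0 at 1 and 3 µM in both lines, and DAPK1 and PTGS2 lie left of 0 at 1 and 3 µM in A549.

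Whether a gene answered a drug to a different extent in the 2 lines was tested by the difference of the 3 µM responses, A549 minus H1299. For azacitidine 5 of the 7 genes differed, where 31.4% of all genes were called. Of these, PTGS2 and DAPK1 lay above the array median only on A549 arrays, and CDKN2A only on H1299 arrays. The filter thus admitted each through the line where it was high, and a fall in the other line had less room to show. The count is therefore a description only. PTGS2 had the largest such difference among the 7, -2.70 ± 0.27 (SE, adjusted p = 2.23e-07), from a response of -1.76 in A549 and 0.93 in H1299. DAPK1 differed by -1.15 (adjusted p = 4.25e-05), from -0.90 in A549 and 0.25 in H1299. RASSF1 rose less in A549 (1.43) than in H1299 (2.63), a difference of -1.20 ± 0.37 (adjusted p = 0.0172). That RASSF1 call was lost under quantile normalization (adjusted p = 0.0618) and without A549 vehicle replicate 2 (0.105), H1299 vehicle replicate 1 (0.0608) or H1299 azacitidine 3 µM replicate 1 (0.0642). TSPYL5 differed by -0.38 (adjusted p = 0.0122), and by -0.25 under quantile normalization (adjusted p = 0.097). CDKN2A differed by 0.92 (adjusted p = 0.00767), from -0.10 in A549 and -1.02 in H1299. The A549 side of that CDKN2A difference is the signal of a gene known to be deleted there, and the call was lost with a pseudocount of 1 (0.91, adjusted p = 0.0689).

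For decitabine 1 of the 7 genes differed between the lines, where 17.3% of all genes were called. It was TSPYL5, with a response of 0.05 in A549 and -0.34 in H1299 and a difference of 0.39 (adjusted p = 0.0195). This was lost with median centring (adjusted p = 0.0779) and without A549 vehicle replicate 1 (0.0617), H1299 vehicle replicate 2 (0.0564) or H1299 decitabine 3 µM replicate 2 (0.115). DAPK1 differed by 0.45 (95% interval 0.09 to 0.82), which did not pass over all genes (adjusted p = 0.0795, and 0.0268 with a larger pseudocount).

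**Figure D4:**
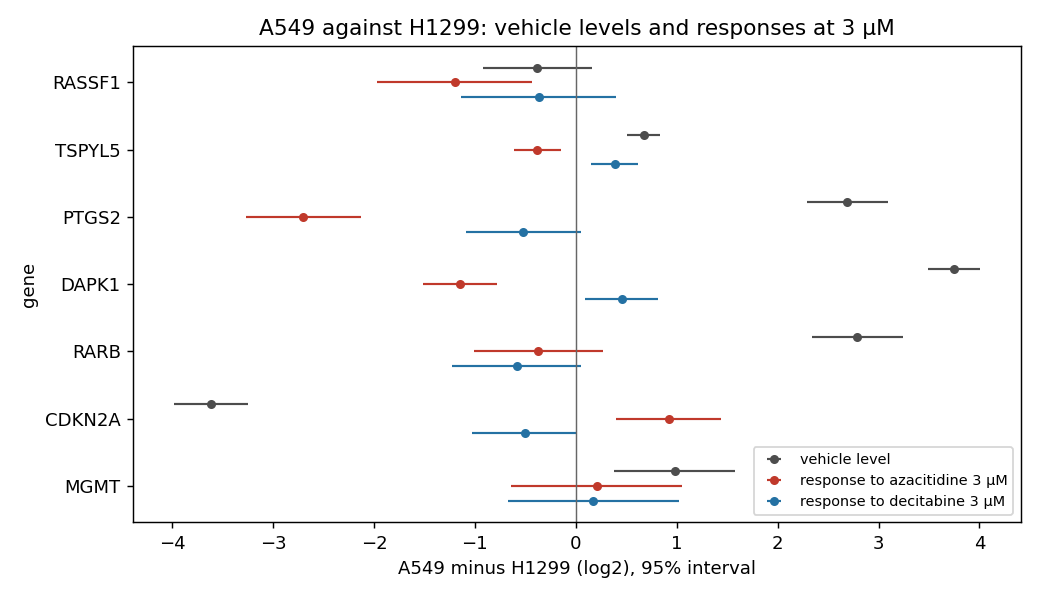
A549 minus H1299 (log2, with 95% intervals) for the 7 genes: vehicle levels, responses to azacitidine 3 µM and responses to decitabine 3 µM. In vehicle, DAPK1, RARB and PTGS2 lie right of 0 and CDKN2A left of it, each with the lower line below the array median on all its arrays.

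FHIT, a dinucleoside hydrolase at a fragile site, and GATA4, a transcription factor of heart and foregut endoderm, exceeded the array median on 0 of 28 arrays. FHIT ran from 26.0 through a median of 43.3 to 88.6 in A549 and from 21.6 through 45.6 to 65.8 in H1299, so the lines overlapped. GATA4 ran from 47.2 through 63.3 to 95.5 in A549 and from 1.68 through 6.73 to 36.1 in H1299, with no overlap. In a fit with no filter on signal, over all singly named probe sets, FHIT differed from vehicle by -0.49 to 0.54 over the 12 doses and lines, with a lowest adjusted p of 0.164. GATA4 differed by -0.24 to 0.58, with a lowest adjusted p of 0.0849. Values this dim limit what either gene can show.

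To set these genes beside others, 63 further genes reported methylated in lung cancer were listed, of which 32 were tested. This list was chosen with earlier results of these data known, so its counts beside those of all genes are a description only. The filter needed 2 arrays above the median, as many as a group holds. A listed gene dim with vehicle could thus enter through a treated group in which it rose. All genes met the same filter, but how far it favoured rises in the list was not tested. With azacitidine at 3 µM, 5 of the 32 rose and 14 fell in A549, and 7 rose and 6 fell in H1299. Of all genes tested, 22.1% rose and 16.2% fell in A549, and 32.3% rose and 21.6% fell in H1299. With decitabine at 3 µM, 13 rose and 5 fell in A549, and 13 rose and 3 fell in H1299, where 15.0% of all genes rose and 10.8% fell in A549, and 16.3% rose and 14.6% fell in H1299. The median difference of the 32 genes was -0.29 with azacitidine and 0.25 with decitabine in A549, and -0.03 and 0.23 in H1299. SPARC, a matrix-associated glycoprotein, had 81.9 and 99.7 with azacitidine in A549, against 358 and 369 with vehicle (-1.69, adjusted p = 7.46e-07). With decitabine the same gene had 1069 and 1166 in A549, against 358 and 369 with vehicle (1.54, adjusted p = 6.03e-06), and 425 and 432 in H1299, against 26.1 and 30.5 with vehicle (2.93, adjusted p = 2.58e-10). KLF4, a zinc finger transcription factor, rose with both drugs in A549, to between 1061 and 1157 with azacitidine (1.54, adjusted p = 1.89e-07) and between 1125 and 1383 with decitabine (1.70, adjusted p = 1.33e-07), against 349 to 372 with vehicle.

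DKK1, a secreted Wnt antagonist, had 41.4 and 69.9 with azacitidine at 3 µM in H1299, against 372 and 410 with vehicle (-2.29, adjusted p = 1.26e-12). With decitabine DKK1 had 2240 and 2308, against 372 and 410 with vehicle (2.45, adjusted p = 1.38e-12). APC, a scaffold of the complex that degrades beta-catenin, had 640 and 721 with azacitidine in H1299, against 304 and 336 with vehicle (1.02, adjusted p = 8.74e-06). Over the 3 matched doses, 5 of the 32 were higher and 20 lower with azacitidine than with decitabine in A549, and 2 were higher and 15 lower in H1299. Of all genes, 27.9% were higher and 26.5% lower in A549, and 30.9% higher and 23.1% lower in H1299. The H1299 total of the 32 genes was thus near the background. Given how the list was chosen, these counts too are a description only.

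**Figure D5:**
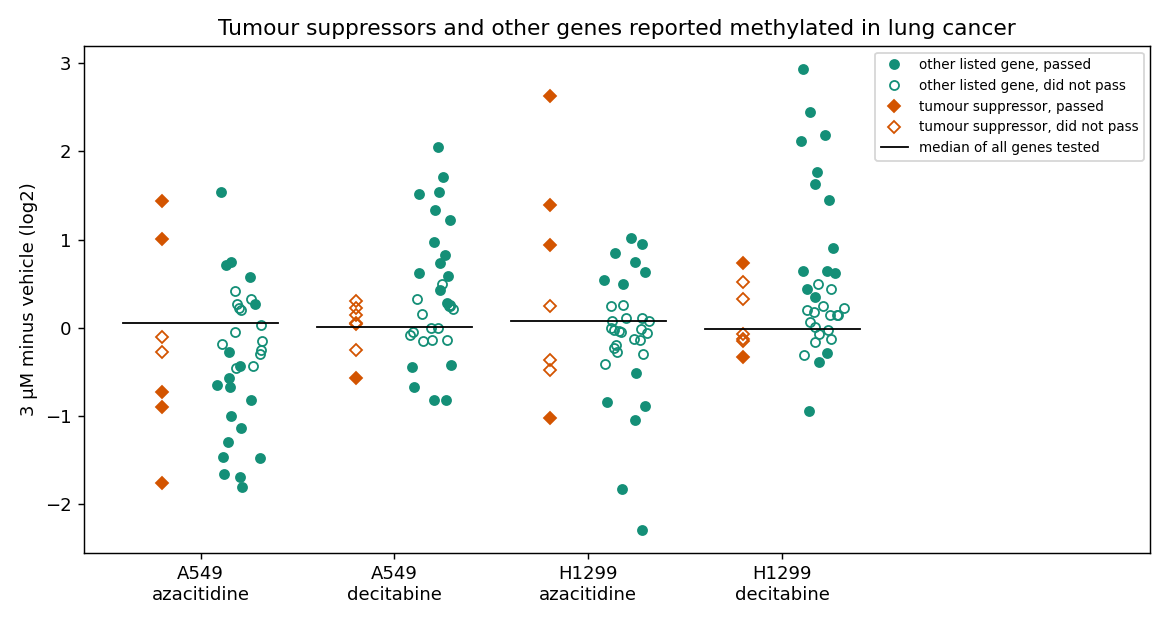
Log2 difference of 3 µM from vehicle for the 7 tested genes (diamonds) and 32 other genes reported methylated in lung cancer (circles). Symbols are filled where the adjusted p was under 0.05, and a line gives the median of all genes tested. The key's words "tumour suppressor" name the group of 7 and not the role of each gene in it. With decitabine 13 of the 32 other genes rose in each line, where 15.0% of all genes tested rose in A549 and 16.3% in H1299. The 32 genes come from a list chosen with earlier results of these data known, so these shares are a description only. Of the 7 genes, PTGS2 rose and TSPYL5 fell past the threshold in H1299, and CDKN2A fell in A549.

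The genes also differed in which others they tracked. After each line's mean was taken off, the gene with the pattern most like RASSF1 over the 28 arrays was BRAP (Pearson's r = 0.95), followed by ZNF84 and R3HCC1. NPIPA1 was most like TSPYL5 (r = 0.97), GPX2 most like DAPK1 (r = 0.91), COL5A2 most like PTGS2 (r = 0.88), SLC4A7 most like CDKN2A (r = 0.83), DDX46 most like RARB (r = 0.79) and PLD3 most like MGMT (r = 0.61). Among the members, RASSF1 and TSPYL5 had r = 0.87, DAPK1 and PTGS2 r = 0.73, and RARB and TSPYL5 r = -0.72. These correlations describe the arrays, which share their dose groups and vehicle, and no test was made of them.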

How the data were processed

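Total RNA was measured on 28 one-colour Affymetrix arrays. The values the authors deposited are MAS5 signals, linear intensities per probe set, scaled before deposit, per the submitters' processing notes and the array totals. No detection calls were in the table used here, so signals near background were judged against each array's median. Precision is limited by the number of arrays. The members and gene lists were chosen with earlier results of these data known.

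The supplied platform annotation named 1 gene for 19070 probe sets, several for 1043 and none for 2164. No member's probe set carried several genes. The brightest of a gene's probe sets past the filter, by mean signal, stood for that gene, which left 8024 of 11963 named genes.

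A limma 3.58.1 model (R 4.3.3) with 1 mean per group and a trended eBayes prior was fitted to log2(signal + 32) over all 28 arrays, leaving 14 residual degrees of freedom. It gave 27 contrasts, each adjusted by the Benjamini-Hochberg method at 0.05, with 95% intervals. The fit was tested on simulated data. Besides the members, the 3 further listed genes with the largest called differences in each direction at 3 µM were eligible to be named. The 3 tested genes most correlated with each member were also eligible. Alternatives were quantile normalization, median centring, pseudocounts of 1 and 128, testing every probe set, a stricter filter (75th percentile), every passing probe set, each line fitted alone, no trend, a replicate block and leaving out each array. A fit of all named probe sets with no filter was added after seeing the data. Upstream sequences came from RefSeq.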

Additional observations from a re-analysis of the deposited data

Results flagged for a closer look

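Each of the following results was noted because the response to 3 µM drug differed between the lines by a test of the difference itself (limma, A549 minus H1299). For azacitidine these were PTGS2 (-2.70, adjusted p = 2.23e-07), RASSF1 (-1.20, adjusted p = 0.0172), DAPK1 (-1.15, adjusted p = 4.25e-05), CDKN2A (0.92, adjusted p = 0.00767) and TSPYL5 (-0.38, adjusted p = 0.0122). For decitabine it was TSPYL5 (0.39, adjusted p = 0.0195). PTGS2, DAPK1 and CDKN2A were each admitted by the filter only through the line where they were high. Groups of 2 arrays were not tested for outlying samples.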

How the results depend on the processing

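Among 2901 member values over all alternatives run, none of the 1197 that belong to a called difference changed sign, while 73 of the 1704 that belong to an uncalled one did. Of the 2901, 2749 kept their side of the threshold, 115 lost a call and 37 gained one. Of 75 calls among 189 member values, 47 held in every alternative in which they were tested, among them 12 of 25 against vehicle, 20 of 28 between the drugs and 2 of 6 between the lines' responses. The member counts that follow are given without the share of all genes called in the same fit. They describe only how stable the calls were. The filter at the 75th percentile tested 4 members and gave 3 calls for azacitidine 3 µM in A549, 1 for decitabine 3 µM in H1299 and 3 between the vehicles. Quantile normalization and a pseudocount of 1 each gave 3 calls, not 5, for the azacitidine response between lines. The larger pseudocount gave 2 for decitabine 3 µM in A549 and 2 for the decitabine response between lines, and median centring gave 0 for that response. Leaving out 1 array gave 0 to 2 calls for decitabine 3 µM in A549 (0 without either A549 vehicle array or decitabine 3 µM replicate 1, 2 without either H1299 decitabine 0.3 µM array), 0 to 2 in H1299 (1 without vehicle replicate 2, 0 without decitabine 3 µM replicate 2), and 0 to 2 for the decitabine response between lines (0 without A549 vehicle replicate 1, H1299 vehicle replicate 2 or H1299 decitabine 3 µM replicate 2, 2 without either H1299 decitabine 0.3 µM array). For azacitidine 3 µM it gave 4 to 5 calls in A549 and 4 to 5 in H1299, for the drug comparison 4 to 6 in A549 and 5 in H1299, for the vehicles 6 to 7, and for the azacitidine response between lines 4 to 5.

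In each group the log2 signal of replicate 1 minus that of replicate 2 was taken over the genes tested. Between groups of a line these differences correlated between -0.25 and 0.27 in A549, above 0.1 in 9 of 21 pairs of groups. In H1299 they correlated between -0.08 and 0.16, above 0.1 in 3 of 21 pairs. The main fit did not treat the numbers as pairs. A replicate block left the count of called members at 5 for azacitidine 3 µM in A549, 4 in H1299, 1 for decitabine 3 µM in A549 and 2 in H1299. With the replicate block CDKN2A at 0.3 µM in A549 gained calls for azacitidine (adjusted p = 0.0435) and decitabine (0.0267), as did PTGS2 at 0.3 µM decitabine in H1299 (0.0484). Median centring moved the median of all genes by over 0.1 in some contrasts, such as to 0.12, against -0.01 as deposited, for azacitidine 1 µM in A549. Signals below the array median, all of MGMT, DAPK1, RARB and PTGS2 in H1299 and of CDKN2A in A549, limit what the differences there can show.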
